A study of Mus musculus with 30 samples.

Results

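The genes described here are 7 that carry ions and water across the retinal pigment epithelium (RPE), the pigmented cell sheet behind the photoreceptors of the eye. They are Kcnj13, Atp1b1, Slc12a2, Slc4a5, Clcn2, Best1 and Aqp1. Each was found by its symbol in 1 row of the deposited expression table, so they are 7 of its 51904 rows. All 7 were among the 16741 genes that had an FPKM (a read count corrected for transcript length and sequencing depth) of at least 1 in at least 5 samples. The study sequenced RPE RNA from 30 mice, all wild-type C57BL/6 males of 10 to 13 weeks. They were sampled at zeitgeber time (ZT, in hours) 0, 2, 4, 9, 14 and 19, 5 mice each. A single eye of each mouse was used, 16 left and 14 right, and all 5 samples of ZT4 came from left eyes. Most samples of ZT14 were left eyes too, and most of ZT2 and ZT19 were right eyes, so eye and time are partly mixed. No group carried an allele or had a treatment other than the time of sampling, per the labels. The question was which transcripts of the RPE follow the time of day. ZT14 and ZT19 are taken as night and ZT2, ZT4 and ZT9 as day, with lights off at ZT12 by convention and not from the labels.

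The RPE pumps ions and, with them, water from the space around the photoreceptors to the blood vessels of the choroid. Its sodium pump sits, unusually for an epithelium, on the side that faces the photoreceptors, where potassium channels let the pumped potassium out again and a cotransporter takes chloride in. Chloride then leaves through channels on the opposite side, and light and darkness change the potassium that the RPE has to buffer.

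In the order of these roles, Kcnj13 (ENSMUSG00000079436) encodes an inwardly rectifying potassium channel. It lies on the minus strand of chromosome 1 of GRCm38 (mm10), start 87386363, end 87394729. Atp1b1 (ENSMUSG00000026576, chromosome 1, start 164437109, end 164458355, minus strand) encodes the beta subunit of the sodium pump. Slc12a2 (ENSMUSG00000024597) encodes the sodium-potassium-chloride cotransporter. Slc4a5 (ENSMUSG00000068323, chromosome 6, start 83219828, end 83304945, plus strand) encodes a sodium-bicarbonate cotransporter. Clcn2 (ENSMUSG00000022843, chromosome 16, start 20702964, end 20717746, minus strand) encodes a chloride channel, loss of which leads to retinal degeneration in mice. Best1 (ENSMUSG00000037418, chromosome 19, start 9985174, end 10001633, minus strand) encodes bestrophin, a calcium-activated chloride channel mutated in human vitelliform macular dystrophy. Aqp1 (ENSMUSG00000004655, chromosome 6, start 55336432, end 55348555, plus strand) encodes a water channel.

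RefSeq's promoter table (GRCm38.p6), which runs from 250 bases before to 50 after the start that RefSeq gives a gene, held 6 of the 7 genes, all but Slc12a2. For Kcnj13, Atp1b1 and Best1 that start is the gene start of the GENCODE coordinates above. For Slc4a5 it lies 17547 bases downstream of it, at the start of another GENCODE transcript of the gene, for Clcn2 1110 bases downstream and for Aqp1 133 bases upstream. The promoters of the 4 genes whose levels followed RPE markers between mice, as described further on, are shown 5′ to 3′ on the strand of the gene. A pair of short motifs were searched on both strands: TAATCC, the core bound by the RPE factor OTX2, and the E-box CANGTG, a wide class that includes CATGTG, a form bound by the RPE factor MITF. Capitals mark each match.
Kcnj13, chr1:87394680-87394979, minus strand: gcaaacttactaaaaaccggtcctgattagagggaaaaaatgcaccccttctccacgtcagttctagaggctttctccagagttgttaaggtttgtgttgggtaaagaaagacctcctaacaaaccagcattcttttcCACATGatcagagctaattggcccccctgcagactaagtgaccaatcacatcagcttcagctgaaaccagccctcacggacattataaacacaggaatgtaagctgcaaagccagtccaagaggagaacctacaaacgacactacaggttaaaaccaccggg
Slc4a5, chr6:83237125-83237424, plus strand: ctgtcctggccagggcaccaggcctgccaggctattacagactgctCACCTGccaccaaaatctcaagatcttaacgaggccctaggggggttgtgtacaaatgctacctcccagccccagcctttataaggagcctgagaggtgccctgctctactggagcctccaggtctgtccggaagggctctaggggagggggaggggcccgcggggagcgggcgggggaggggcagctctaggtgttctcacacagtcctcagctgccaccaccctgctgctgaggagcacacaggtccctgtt
Clcn2, chr16:20716587-20716886, minus strand: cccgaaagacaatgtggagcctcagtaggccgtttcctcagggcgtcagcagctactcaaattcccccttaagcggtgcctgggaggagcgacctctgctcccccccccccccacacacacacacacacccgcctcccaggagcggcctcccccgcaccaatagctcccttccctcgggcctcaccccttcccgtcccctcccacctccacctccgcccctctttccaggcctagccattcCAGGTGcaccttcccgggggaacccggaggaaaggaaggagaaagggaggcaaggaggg
Atp1b1, chr1:164458306-164458605, minus strand: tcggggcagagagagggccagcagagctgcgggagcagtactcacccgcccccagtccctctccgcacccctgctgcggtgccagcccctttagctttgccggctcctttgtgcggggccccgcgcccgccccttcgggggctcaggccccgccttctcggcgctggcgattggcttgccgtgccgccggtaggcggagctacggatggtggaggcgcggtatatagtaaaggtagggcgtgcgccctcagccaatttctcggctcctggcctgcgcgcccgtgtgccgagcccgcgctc
The Kcnj13 promoter held CACATG, which is CATGTG on the other strand, with its first base at -112 from the RefSeq start, from which all these positions are counted. Slc4a5 held CACCTG at -204 and Clcn2 held CAGGTG at -9. The Atp1b1 promoter held neither motif. Of the promoters not shown, Best1 held TAATCC at -227 and Aqp1 held CACCTG at -181. Of all 32851 promoters of this length, 7.06% hold TAATCC, 44.9% hold CANGTG and 14.2% hold CATGTG, so an E-box is common in such a window. The 4 sequences shown differ in base composition. G and C made up 46.0% of the Kcnj13 promoter, 62.7% of the Slc4a5 promoter, 65.7% of the Clcn2 promoter and 71.0% of the Atp1b1 promoter, against a median of 52.7% over all promoters. The Atp1b1 promoter had 31 CpG pairs and the Kcnj13 promoter 5, against a median of 7.

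Depth and tissue mix bear on every value. The reads behind each sample, estimated from the size of the smallest steps between FPKM values, numbered 12.5 to 23.0 M (M: mega). All 8 RPE markers (Rpe65, Rlbp1, Lrat, Rgr, Rdh5, Stra6, Ttr and Rrh) were present in all samples, with a summed level of 4744 to 16944 FPKM. Markers of other tissues were present too: 10 markers of surface epithelium (keratins and others) summed to 2602 to 22674 FPKM, 12 of skeletal muscle to 2302 to 27272 FPKM, 9 of myelin to 358 to 11740 FPKM and 12 of rods to 80.7 to 12931 FPKM. A pair of libraries stood apart. In ZT14 replicate 3, 12754 genes were above 0, against 16723 to 19374 in the others, and 557 genes whose median elsewhere was at least 10 FPKM were listed at 0. ZT4 replicate 1 had the lowest RPE marker sum, and 4 of the 8 RPE markers were at their lowest there. Since these are bulk samples, fewer cells of a type and less RNA per cell cannot be told apart.

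Kcnj13 and Atp1b1 were the most abundant of the 7 genes by FPKM, and Best1 had the lowest listed values. The median over 30 samples was 269 FPKM for Kcnj13, 246 FPKM for Atp1b1, 147 FPKM for Slc4a5, 107 FPKM for Aqp1, 63.9 FPKM for Slc12a2, 19.5 FPKM for Clcn2 and 0.607 FPKM for Best1. Kcnj13 was above 98.1% of the genes tested by its median, and Clcn2 above 67.9%. Kcnj13 exceeded Atp1b1 in 16 of 30 samples, so these neighbours in the order did not separate. Slc4a5 exceeded Aqp1 in 22 samples and Aqp1 exceeded Slc12a2 in 28. Atp1b1 was above Slc4a5, Slc12a2 above Clcn2, and Clcn2 above Best1 in all 30.

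The genes differed in how much they varied between mice. Kcnj13 ranged 9.06-fold over the samples, from 54.2 FPKM in ZT4 replicate 1 to 491 FPKM in ZT4 replicate 2. Without ZT4 replicate 1 its lowest value was 125 FPKM, and the range was 3.93-fold. Its SD within time points was 0.72 on the log2(FPKM + 1) scale, against a median of 0.35 for 255 genes of similar level, and 0.53 without that sample. Slc12a2 was the steadiest, with a 2.20-fold range and an SD of 0.29, against 0.43 for genes of similar level. Kcnj13, Atp1b1, Slc4a5 and Clcn2 all had their lowest value in ZT4 replicate 1, the library lowest in RPE markers, while Aqp1 stood at 124 FPKM there, above 19 other samples.

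**Figure D1:**
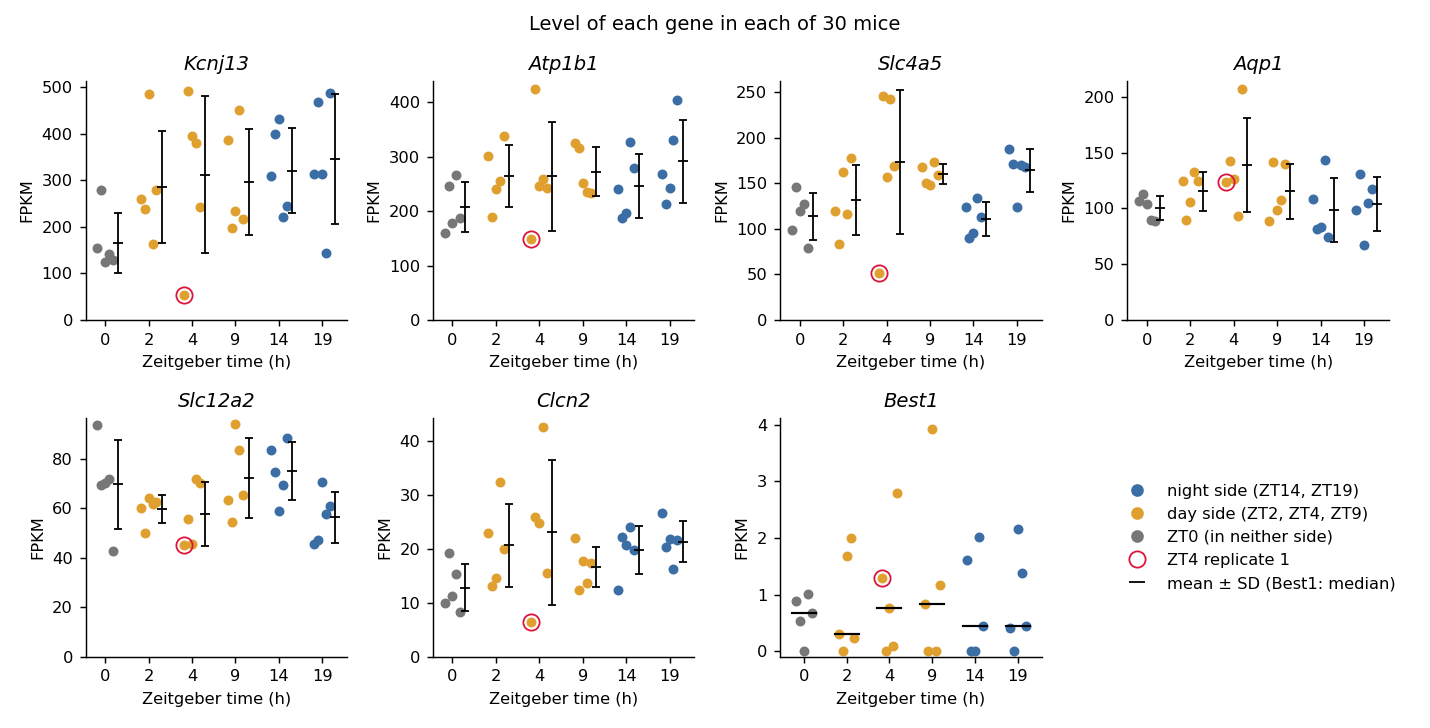
FPKM of each gene (vertical axes, linear) in the 5 mice of each zeitgeber time (horizontal axes, hours), with mean ± SD beside the points and the median for Best1. Kcnj13, Atp1b1, Slc4a5 and Clcn2 are lowest in ZT4 replicate 1 (ringed), and 8 of the 30 Best1 values are at 0.

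Best1, a gene used as an RPE marker elsewhere, had low values. It was listed at 0 in 8 samples, at least 1 at each time, and its highest value was 3.93 FPKM in ZT9 replicate 3. The 5 values were 0.890, 0.539, 0, 1.01 and 0.674 FPKM at ZT0 and 0.303, 0, 1.69, 2.00 and 0.233 FPKM at ZT2. At ZT4 they were 1.30, 0, 0.759, 0.0864 and 2.80 FPKM, and at ZT9 they were 0.837, 0, 3.93, 0 and 1.17 FPKM. No time stood apart, since each held both values at 0 and values near or above 1 FPKM. At ZT14 they were 1.61, 0, 0, 2.01 and 0.444 FPKM, and at ZT19 they were 0.415, 0, 2.15, 1.37 and 0.437 FPKM. With a transcript of 2080 bases and the estimated depths, the values above 0 correspond to about 2.98 to 145 reads, with a median of 33.4. A level of 3 reads, the limit that a count of 0 allows, corresponds to 0.0692 to 0.127 FPKM over the samples, for counting error only. The median of the values above 0 lay well above that level. ZT9 replicate 4 was listed at 0 with an estimated depth of 23.0 M reads, and ZT9 replicate 3 had about 145 Best1 reads at 19.6 M. Why 8 samples were listed at 0 was not tested. Best2, the paralogue known from the ciliary body and colon, had a median of 9.59 FPKM and exceeded Best1 in 29 of 30 samples. In GENCODE M21, Best1 ends 75 bases from Fth1 (median 3045 FPKM), a ferritin gene on the opposite strand. Rab3il1 (median 12.9 FPKM), also on the opposite strand, lies 35 bases from Best1. How the authors' tool assigned reads between such neighbours is not given in the sources used here, and an exact 0 can also be a failed estimate. Between mice, Best1 had r = -0.11 with the RPE markers over 30 samples.

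Exons of other genes on the opposite strand also overlap members. Kcnj13 shares 623 bases of exon with Gigyf2 (median 43.1 FPKM), Atp1b1 shares 575 with Nme7 (14.1 FPKM), and Clcn2 shares 85 with Fam131a (5.78 FPKM) and 82 with Polr2h (12.7 FPKM). Whether reads were counted by strand is not stated, so the FPKM of these members may hold reads of the partner.

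None of the 7 genes was called rhythmic. A 24 h cosine was fitted to log2(FPKM + 1) with limma, where the amplitude is the height of the fitted peak above the fitted mean, and p was adjusted over all 16741 genes by the Benjamini-Hochberg method. The test called 0 of 7 members and 18 genes in all (0.108%), and no member had an unadjusted p under 0.05, against 8.76% of all genes. Amplitudes were 0.29 ± 0.17 for Kcnj13, 0.20 ± 0.09 for Aqp1, 0.14 ± 0.08 for Slc12a2 and 0.06 to 0.10 for the other 4 genes (± SE, log2 scale). The median amplitude of the 7 members was 0.10, against 0.22 over all genes tested, which were not matched to the members by level or spread. The smallest adjusted p was 0.618, for Aqp1, whose fitted peak lay at ZT5.4. A test for any difference among the 6 times, without a shape, also called 0 of 7 members and 12 genes in all (0.0717%). No member passed it unadjusted, against 8.67% of genes, and the smallest adjusted p in limma was 0.711, for Slc4a5.

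Aqp1 had lower values by night than by day, but not past the threshold. It had 67.1 to 144 FPKM with a median of 102 FPKM in the 10 night samples, and 88.4 to 207 FPKM with a median of 124 FPKM in the 15 day samples. The ranges overlapped from 88.4 to 144 FPKM. The fitted difference of night minus day was -0.28 ± 0.13 (log2, 95% interval -0.56 to -0.01, limma, unadjusted p = 0.0421, adjusted p = 0.454). The limma contrast called 0 of 7 members and 5 genes in all (0.0299%), and 1 member, Aqp1, was lower at an unadjusted p under 0.05, as were 6.21% of all genes. With 5 scores of other tissues (rod, surface epithelium, skeletal muscle, myelin and stroma) as terms, Aqp1's difference was -0.17 ± 0.12. Surface epithelium markers, also lower at night, had a mean score of 8.20 ± 0.91 at night and 9.08 ± 0.99 by day (SD, n = 10 and 15). Their summed level was 2810 to 16132 FPKM at night and 2602 to 21642 FPKM by day, with 0 of the 10 markers at 0 in any sample. The intervals of the other members included 0 on both sides: Kcnj13 differed by 0.24 with an interval of -0.33 to 0.81, and Atp1b1 by 0.01 with an interval of -0.29 to 0.31.

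Between ZT0 and ZT19 the potassium channel, the pump subunit and the chloride channel had their lowest mean levels at ZT0, again short of the threshold over all genes. Kcnj13 had 154, 278, 125, 142 and 129 FPKM at ZT0, against 313, 467, 313, 144 and 488 FPKM at ZT19. The groups overlapped, but 4 of the ZT0 values were at 154 FPKM or less and 4 of the ZT19 values at 313 FPKM or more. The fitted difference was -1.002 ± 0.43 (log2, unadjusted p = 0.0270, limma adjusted p = 0.297). Clcn2 had 10.0, 19.3, 11.2, 15.4 and 8.33 FPKM at ZT0, against 26.8, 20.4, 21.9, 16.4 and 21.7 FPKM at ZT19. Only its ZT0 value of 19.3 exceeded any ZT19 value. The difference was -0.73 ± 0.33 (unadjusted p = 0.0340, limma adjusted p = 0.324). Atp1b1 had 160, 246, 178, 265 and 188 FPKM at ZT0, against 268, 213, 243, 331 and 404 FPKM at ZT19. The ranges overlapped, and the difference was -0.48 ± 0.23 (unadjusted p = 0.0440, limma adjusted p = 0.364). Slc4a5 differed by -0.54 ± 0.28, with a 95% interval of -1.11 to 0.03. The step in limma called 0 of 7 members and 7 genes in all (0.0418%), and these 3 members were lower at an unadjusted p under 0.05, as were 5.92% of genes.

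RPE markers as a whole were lower at ZT0 too. Their mean score was 8.79 ± 0.35 at ZT0 and 9.61 ± 0.16 at ZT19 (mean log2(FPKM + 1) of 8 genes, SD, n = 5), with sums of 5693 to 10285 FPKM at ZT0 and 10775 to 15468 FPKM at ZT19. The sums did not overlap. Surface epithelium markers summed to 11246 to 22674 FPKM at ZT0 and 2810 to 4503 FPKM at ZT19, and skeletal muscle markers to 3372 to 6235 FPKM at ZT0 and 6847 to 27272 FPKM at ZT19. With the RPE score as a term in limma, the difference of ZT0 minus ZT19 became -0.02 ± 0.38 for Kcnj13, 0.13 ± 0.25 for Clcn2, -0.04 ± 0.22 for Atp1b1 and 0.20 ± 0.21 for Slc4a5. With the 5 scores of other tissues as terms instead, it was -0.23 ± 0.55 for Kcnj13, -0.36 ± 0.39 for Clcn2, -0.10 ± 0.28 for Atp1b1 and 0.06 ± 0.32 for Slc4a5, so the sign for Clcn2 turned with the RPE score and not with the 5 scores. Among the members, Slc12a2 alone had an interval apart from 0 in the fit with the RPE score, at 0.48 ± 0.22 (0.04 to 0.93, limma adjusted p = 0.748). Without the term its difference was 0.28 ± 0.19, and with the 5 scores it was 0.06 ± 0.24. The share of all genes with such an interval in the fit with the RPE score is not given here. The result therefore cannot be called particular to Slc12a2. Without ZT4 replicate 1, which enters only through the shared spread, the limma adjusted p of Kcnj13 was 0.127, and over all alternatives it ran from 0.0976 to 0.995. The number of genes called in this step moved with single libraries, between 1 and 107, with 107 reached without ZT14 replicate 3, and no member was among them.

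**Figure D2:**
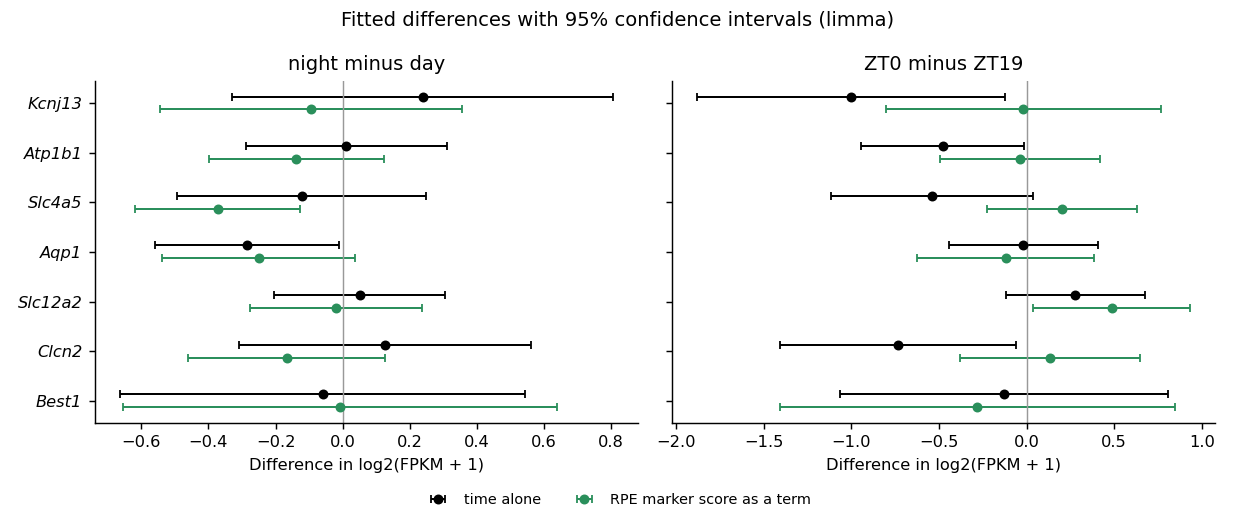
Fitted differences in log2(FPKM + 1) with 95% confidence intervals from limma for each gene, night minus day at left and ZT0 minus ZT19 at right, from time alone (black) and with the RPE marker score as a term (green). At right, the black estimates of Kcnj13, Clcn2 and Atp1b1 lie at -1.002, -0.73 and -0.48, and the green ones at -0.02, 0.13 and -0.04.

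Slc4a5 was the 1 member whose values at a pair of neighbouring times did not overlap. It had 124, 89.7, 95.2, 134 and 113 FPKM at ZT14, against 168, 151, 148, 173 and 159 FPKM at ZT9. All 5 ZT14 values were below all 5 ZT9 values, which holds for 1 of the 7 members and, in either direction, for 0.544% of all genes in that step. In the other 5 steps 0 of the 7 members separated in this way, against 0.538% to 4.85% of genes. The difference of -0.53 ± 0.28 did not pass (unadjusted p = 0.0678, limma adjusted p = 0.758), with a shared spread that includes the ZT4 values of 51.6, 245, 157, 242 and 169 FPKM. At ZT19 the bicarbonate cotransporter had 187, 171, 124, 170 and 168 FPKM, 0.56 ± 0.28 above ZT14 (limma adjusted p = 0.531). RPE markers moved less over these times, with scores of 9.37 ± 0.28 at ZT9, 9.42 ± 0.23 at ZT14 and 9.61 ± 0.16 at ZT19 (SD, n = 5). With the RPE score as a term, ZT14 minus ZT9 was -0.58 ± 0.18 for Slc4a5 (unadjusted p = 0.00297, limma adjusted p = 0.658). Its night minus day difference was -0.37 ± 0.12 (unadjusted p = 0.00439, limma adjusted p = 0.540). For night minus day in that fit, 4.29% of all genes were lower at an unadjusted p under 0.05. With the 5 scores these differences were -0.43 ± 0.21 and -0.33 ± 0.17, with limma adjusted p of 0.659 and 0.869. Over all alternatives, the limma adjusted p of night minus day ran from 0.537 to 0.935. The test among the 6 times gave this gene an adjusted p of 0.168 in limma without ZT4 replicate 1, and 0.159 to 0.875 over all alternatives.

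Slc12a2, the chloride-loading cotransporter (GRCm38 chromosome 18, start 57878678, end 57946821, plus strand), had 45.5, 47.1, 70.6, 57.9 and 60.8 FPKM at ZT19, against 83.7, 74.9, 59.1, 69.5 and 88.4 FPKM at ZT14. The ranges overlapped, with a difference of -0.41 ± 0.19 (unadjusted p = 0.0412, limma adjusted p = 0.5004). Most ZT19 samples were right eyes and most ZT14 samples left eyes, so time and eye are not well separated here. In this step limma called 0 of 7 members and 2 genes in all (0.0119%), and Slc12a2 was the 1 member lower at an unadjusted p under 0.05, against 3.79% of genes. In the remaining 4 steps limma called 0 members and 0 genes (0%), and no member had an unadjusted p under 0.05. At that level the steps held 3% of genes for ZT2 minus ZT0, 3.38% for ZT4 minus ZT2, 3.48% for ZT9 minus ZT4 and 6.74% for ZT14 minus ZT9.

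Between mice of the same time, 4 of the genes rose and fell with the RPE markers. Each member's log2(FPKM + 1) and each of 12 marker scores were centred on their time point and correlated over 30 samples, with 100000 permutations within time points and Benjamini-Hochberg adjustment over 84 pairs. Clcn2 had r = 0.83 with the RPE score (rho = 0.67, permutation adjusted p = 0.0025 and 0.0227). Slc4a5 had r = 0.82 (rho = 0.54, permutation adjusted p = 0.0174 and 0.0726), Kcnj13 r = 0.69 (rho = 0.47, adjusted p = 0.0260 and 0.109) and Atp1b1 r = 0.61 (rho = 0.48, adjusted p = 0.0293 and 0.0997). Slc12a2 (r = 0.36), Aqp1 (r = -0.16) and Best1 did not pass. By its r with the RPE score, Clcn2 stood behind 61 of the 16741 genes, Slc4a5 behind 73, Kcnj13 behind 200 and Atp1b1 behind 330. The median gene had r = -0.01, and 85 genes (0.508%) had an r of at least 0.8. These ranks and counts are from all 30 samples and include the RPE markers that make up the score.

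These relations rest in part on ZT4 replicate 1. Without it, r with the RPE score was 0.70 for Clcn2 (permutation adjusted p = 0.0168), 0.62 for Slc4a5 (0.0905), 0.45 for Atp1b1 (0.137) and 0.40 for Kcnj13 (0.149), so that Clcn2 alone passed. Without the 2 samples farthest from the median score, r was 0.67 for Clcn2, 0.52 for Slc4a5, 0.42 for Kcnj13 and 0.36 for Atp1b1. Animal numbers were also put into 5 runs, a grouping made here and not in the labels, with gaps inside some of them. Centred on these runs in place of time points, r was 0.76 for Clcn2, 0.78 for Slc4a5, 0.72 for Kcnj13 and 0.72 for Atp1b1. Over all alternatives the permutation adjusted p ran from 8.4e-04, the smallest that the permutations can give, to 0.0227 for Clcn2 and to 0.149 for Kcnj13. It ran from 0.00196 to 0.0905 for Slc4a5 and from 0.0063 to 0.137 for Atp1b1.

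**Figure D3:**
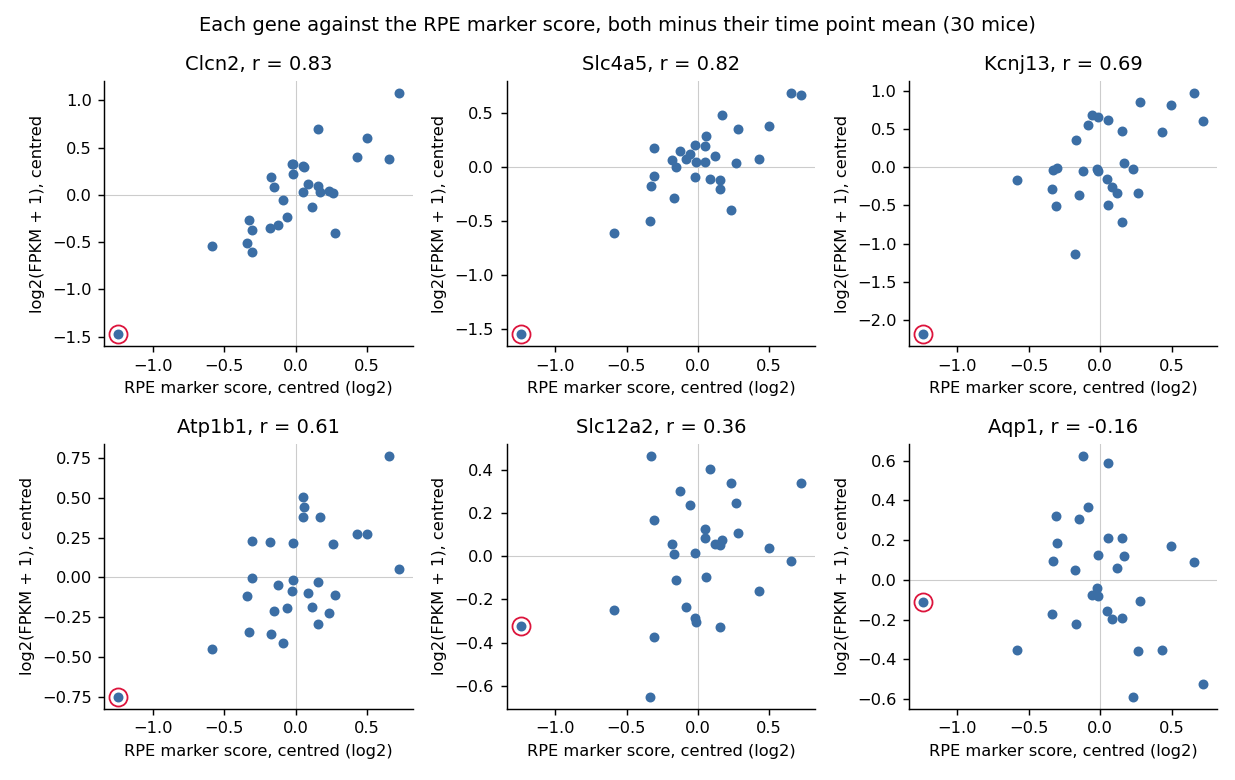
Level of 6 genes (vertical axes, log2(FPKM + 1) minus the mean of the time point) against the RPE marker score (horizontal axes, centred the same way), 1 point per mouse, with ZT4 replicate 1 ringed. Clcn2 and Slc4a5 rise with the score (r = 0.83 and 0.82), and Aqp1 does not (r = -0.16).

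Of the 84 pairs of member and marker list, 17 passed in all 30 samples. Of these, 6 were for Kcnj13, 5 for Clcn2, 3 for Slc12a2 and 1 each for Atp1b1, Slc4a5 and Aqp1. How often other genes would pass with the same lists was not computed, so the count cannot be called particular to the members. Aqp1, a water channel gene also known from other cells of the eye, fell as myelin markers rose (r = -0.73, rho = -0.69, permutation adjusted p = 0.0046 and 0.0118). That relation was as strong without ZT4 replicate 1 (r = -0.73, permutation adjusted p = 0.0168). Slc12a2 and Kcnj13 were lower where retina markers were higher. With the rod score, Slc12a2 had r = -0.60 and Kcnj13 r = -0.54 (permutation adjusted p = 0.0260 and 0.0228), and both also passed with the cone and inner retina lists. Kcnj13 and Clcn2 were positively correlated with endothelium (r = 0.53 and 0.51) and immune markers (r = 0.60 and 0.54), and Clcn2 with stroma (r = 0.54) and negatively with surface epithelium (r = -0.61). Without ZT4 replicate 1, 2 of the 17 pairs remained past the threshold, Clcn2 with RPE and Aqp1 with myelin. By rank correlation the same pairs passed and no others. The count of 17 was 7 without ZT9 replicate 2, 10 without ZT0 replicate 5 or ZT4 replicate 5, and 11 without ZT0 replicate 2. What any of the 17 relations owes to the mix of tissues was not tested.

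**Figure D4:**
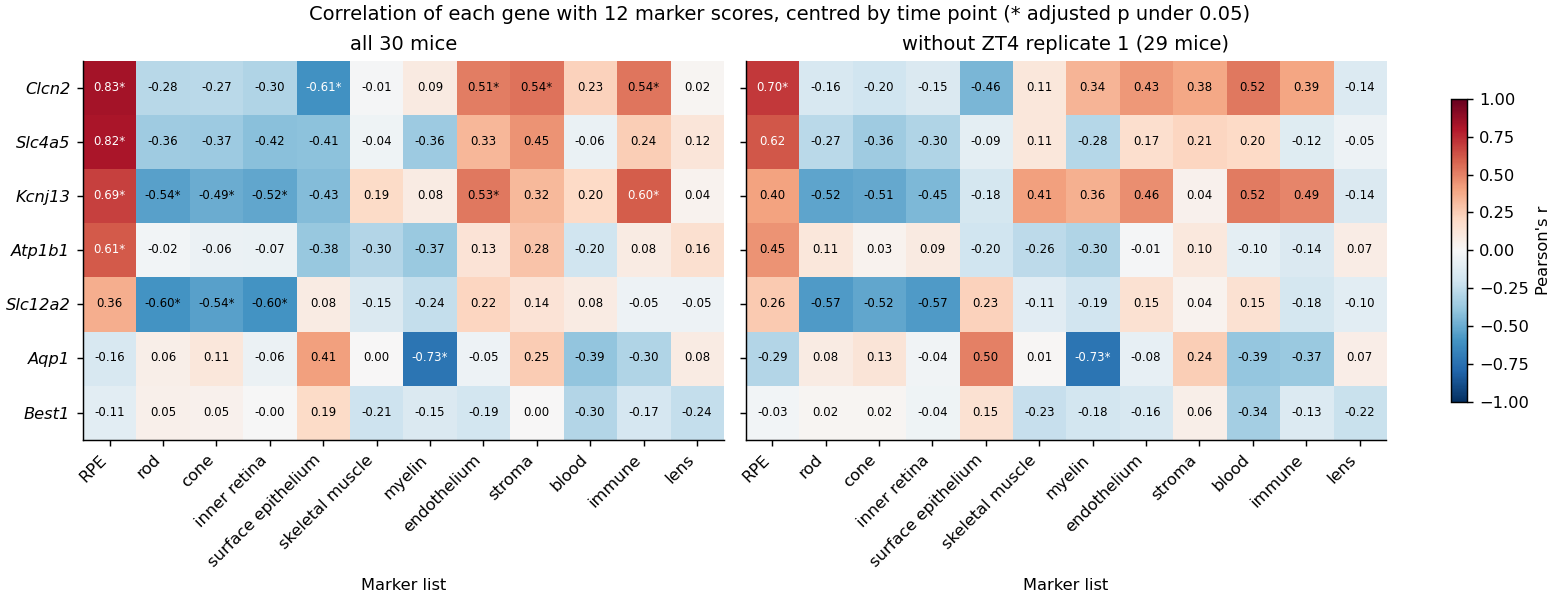
Pearson's r between each gene (rows) and each of 12 marker scores (columns), centred by time point, in all 30 mice at left and in 29 mice at right. Stars mark a permutation adjusted p under 0.05: 17 pairs at left, and at right Clcn2 with RPE markers (0.70) and Aqp1 with myelin markers (-0.73).

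Among the 21 pairs of members, Atp1b1 and Slc4a5, the pump subunit and the bicarbonate cotransporter, were the 1 pair to pass (r = 0.69, rho = 0.62, permutation adjusted p = 0.0139 and 0.0227). Without ZT4 replicate 1 it had r = 0.58 (permutation adjusted p = 0.0716) and no pair passed, nor did any without ZT2 replicate 2. Slc4a5 had r = 0.67 with Clcn2 and 0.66 with Kcnj13, and without ZT4 replicate 1 these were 0.36 and 0.27. Kcnj13, Slc12a2, Clcn2, Aqp1 and Best1 each passed with no other member.

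The genes most like each member, by Pearson's r of log2(FPKM + 1) over all 30 samples without centring, were as follows. For Kcnj13 they were Stra6 (0.78), the retinol-binding protein receptor, then Slc22a8, Arl6ip1, Ttr and Psap (0.74). For Clcn2 they were Rlbp1 (0.86), which binds retinaldehyde, then the catalase gene Cat, Dusp4, Csf1r and Stra6 (0.79). Stra6, Ttr and Rlbp1 are in the RPE marker list used above. For Slc4a5 they were Cpt1a (0.90), which admits fatty acids to mitochondria, then Atrnl1, Spon1 and Col8a1 (0.81). For Atp1b1 they were Abat (0.79), which breaks down GABA, then Galnt10, Spon1, Cpt1a and Phactr2 (0.73). Spon1 and Cpt1a thus appeared in both lists. Slc12a2 was most like Rnf152 (0.76), Atl3, Acap2, Epas1 and Prrc2b (0.72), and Aqp1 most like Prss23 (0.72), Npnt, Igfbp2, Dach1 and Lamb1 (0.66). Best1 reached at most 0.64, with Tram2, followed by Wnk2, Adamts7, Piezo2 and 4933406P04Rik. Slc4a5 had 10 genes and Clcn2 had 4 genes at an r of at least 0.8, and the other members had 0. By rank correlation, 1 to 4 of the 5 names of a member recurred.

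Other transport genes were counted in 8 classes, 54 genes in all, of which 52 passed the filter on low values. Sgk1, a kinase that regulates ion transport, was the 1 gene called in the rhythm test and in the test among times, with an amplitude of 0.40 ± 0.06 and a limma adjusted p of 7.74e-04 for the rhythm. Those tests called 0.108% and 0.0717% of all genes. The limma rhythm test reached an unadjusted p under 0.05 for 8 of the 52, against 8.76% of all genes. The most abundant gene of its class by its median was Clic6 (133 FPKM) for chloride channels, Slc12a7 (23.3 FPKM) for cation-chloride cotransporters and Slc4a2 (150 FPKM) for bicarbonate and proton transporters. It was Aqp5 (452 FPKM) for aquaporins, Trpv4 (14.3 FPKM) for calcium channels and Sgk1 (258 FPKM) for regulators. Kcnj13 was the most abundant potassium channel gene of those listed, and Best1 was below both Best2 and Clcn2. Aqp5, known from the cornea and glands, ranged from 33.2 to 1098 FPKM and had r = -0.58 with the RPE score. Clic6 had 0.87 and Sgk1 0.64.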

How the data were processed

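RNA of mouse RPE was sequenced as single reads of 75 bp with a stated mean of 20 M reads (M: mega) per sample, per the labels' protocols. STAR, Cufflinks, DESeq2 and build mm10 are named, without roles or versions, in the submitters' processing notes. The deposited values are FPKM per gene and sample, written with decimal commas, which the authors had normalized for length and depth; other details of their making are not given in the sources used here.

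FPKM were used as deposited, with no rescaling. The 16741 genes at an FPKM of 1 or more in 5 or more samples were put on the log2(FPKM + 1) scale, with a pseudocount of 1, so fold changes of low genes are understated. limma 3.58.1 (R 4.3.3, trend on) gave the rhythm (24 h cosine), the test among 6 times, night minus day and 6 steps, all two-sided, with a threshold of 0.05 on adjusted p. The rhythm fit was tried on simulated rhythms, all of larger amplitude than any fitted to a member. That trial does not show whether rhythms as small as those of the members would be called. Depth was estimated from FPKM steps, since deposited counts were not used here, and all intervals cover the spread between mice. Correlations used numpy 2.4.6, and gene positions come from GENCODE M21, which held 51625 of the 51904 IDs. All 7 members are named in every comparison. Of other transport genes those named are the called ones and the highest median per class, and the 5 most like genes are given for each member; some genes that these rules pick are not reported here. The members, marker lists and transport lists were chosen with earlier results of these data known, and the motifs searched and the genes whose promoters are printed were chosen after values were seen. Alternatives were a pseudocount of 0.1, no filter, no trend, median-ratio rescaling, marker scores, eye or runs of animal numbers as terms, Spearman's rho, and leaving out each sample.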

Additional observations from a re-analysis of the deposited data

Results flagged for a closer look

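Of 42 groups of 5 mice (7 genes at 6 times), 2 held a sample far from the others, by the gap to its nearest neighbour as a share of the group's range, and chance alone gives about 1 in 20. Kcnj13 was 278 FPKM in ZT0 replicate 2, above 125 to 154 FPKM in the other 4 mice of ZT0. Slc12a2 was 50.02 FPKM in ZT2 replicate 2, below 60.2 to 64.4 FPKM in the other 4 mice of ZT2.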

How the results depend on the processing

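No member was called under any of the 39 alternatives in the rhythm, the test among times, night minus day or the steps; of the rhythm, both other tests over times and the step of smallest p of each member, the smallest adjusted p in limma was 0.0976, for Kcnj13 at ZT0 minus ZT19 without ZT14 replicate 3 and ZT4 replicate 1, an omission chosen after seeing the data. The counts of genes called are small and moved easily. For ZT0 minus ZT19 (7) they were 1 with a pseudocount of 0.1, 2 with no filter, 4 with no trend or rescaled, 0 with the RPE score or 5 scores, 1 with eye or animal runs, 1 to 107 with single samples left out, and 270 without the pair named above. For ZT19 minus ZT14 (2) they were 0 with a pseudocount of 0.1, 1 with no filter, 330 with 5 scores, 8 with eye, and 1 to 5 with samples left out. For ZT14 minus ZT9 (0) they were 1 with no filter, rescaling or eye, 2 with the RPE score, and 0 to 2 with samples left out. ZT9 minus ZT4 had 3 with 5 scores and 0 to 1 with samples left out, ZT2 minus ZT0 had 2 with no filter, night minus day (5) had 3 with the RPE score or without that pair, the rhythm (18) had 28 with 5 scores, and the test among times (12) had 7 with animal runs. The cause was not tested.

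Night minus day turned direction for Kcnj13 with the RPE score (-0.095) and 5 scores (-0.13), Clcn2 (-0.17) and Slc12a2 (-0.019) with the RPE score, Best1 with 5 scores (0.28), and Atp1b1 rescaled (-0.014), with the RPE score (-0.14), 5 scores (-0.097) and animal runs (-0.061). ZT0 minus ZT19 turned for Clcn2 with the RPE score (0.13). With single samples left out, night minus day ran from -0.052 to 0.075 for Atp1b1 and -0.17 to 0.060 for Best1, and ZT14 minus ZT9 from -0.38 to 0.20 for Best1. Without the pair, night minus day was -0.0033 for Kcnj13, -0.015 for Atp1b1, -0.00876 for Clcn2 and 0.060 for Best1, and ZT14 minus ZT9 was 0.017 for Best1. Pairs of member and marker list past the threshold numbered 7 centred on animal runs, 2 by rank and 2 to 19 with samples left out, and pairs of members numbered 6 and 0 to 1. Rescaling shifted ZT14 replicate 3 by -0.18 (log2). Runs of animal numbers were the 1 block fitted, since the labels carry no replicate numbers that pair samples across times. Low values and values at 0 limit Best1.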
